A study of Mus musculus with 16 samples.

Results

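The genes described are 10 genes of hepatic stellate cells and of fibrosis, namely Pdgfra, Pdgfrb, Col1a1, Col1a2, Col3a1, Des, Lrat, Dcn, Acta2 and Timp1. They were taken by gene symbol from 19938 genes measured in mouse liver on Affymetrix Mouse Gene 1.0 ST arrays, and each was read by 1 probe set. The livers came from male mice aged 4 months, with 1 array per liver and 4 arrays in each of 4 groups. All mice carried the transgene TgINS-MCK-Mut, named for the muscle creatine kinase promoter, so the controls had it as well as the mutants. Heterozygotes were Mut +/-;TgINS-MCK-Mut and mutants Mut -/-;TgINS-MCK-Mut, where Mut (now Mmut) encodes methylmalonyl-CoA mutase, the enzyme missing in methylmalonic acidemia. Each genotype was sampled unfasted and fasted. The fast lasted 12 hours in heterozygotes and 8 to 12 hours in mutants. In the fasted comparison the length of the fast and the genotype therefore cannot be told apart. The same holds for the interaction, and wherever fasting differences of both genotypes are set side by side.

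Hepatic stellate cells lie between the sinusoidal endothelium and the hepatocytes and hold most of the vitamin A of the body as retinyl esters, which are made by lecithin retinol acyltransferase (Lrat). After liver injury they can turn into contractile myofibroblasts that secrete fibrillar collagen, driven by platelet-derived growth factor (PDGF) and transforming growth factor beta (TGF-beta). Lrat is known from rodents as a mark of the resting cell, and desmin (Des) as a mark of stellate cells whether resting or activated. Smooth muscle actin (Acta2), type I collagen (Col1a1, Col1a2) and the protease inhibitor Timp1 rise in the activated cell. The series' title names the adaptive response in methylmalonic acidemia, and the 4 groups were compared here for these genes.

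Values are log2 expression as deposited, and differences are log2 differences ± standard error from limma, fitted to all 16 arrays and 19938 genes, with Benjamini-Hochberg adjustment of each p-value across the whole table. A gene with an adjusted p under 0.05 is said to be called and to have risen or fallen. Mmut, the targeted gene, read between 7.85 and 8.33 on the 8 mutant arrays and between 9.66 and 10.10 on the 8 heterozygous ones. Unfasted mutant replicate 1 carried transcripts of pancreatic acinar cells, with Cpa1 (carboxypeptidase A1) at 12.29 against 6.84 to 7.22 on the 15 other arrays, and counts of called genes that it moved by over 1.5 times are given without it too. None of 9 acinar markers was called in either genotype comparison, and none had an unadjusted p under 0.05 (limma), while 1 was called in the fasted comparison without that array.

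In unfasted mutants 5 of the 10 genes rose above heterozygotes and none fell. These were both PDGF receptors, Lrat, Des and Dcn. The increases were small, 1.22-fold to 1.81-fold. Among all genes 4.25% were called higher, 3.69% lower and 7.94% in either direction. The median difference of the 10 genes was 0.29, against 0.01 over all genes. The groups did not overlap for 5 of the 10 genes, all higher in mutants, where 6.16% of all genes did so in that direction and 5.83% in the other. Without the array that held acinar transcripts 5 genes were called. The count fell to 2 without unfasted heterozygous replicate 3 and to 3 without its replicate 4, and it was 3 when only these 8 arrays were fitted.

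Both PDGF receptors rose in unfasted mutants. Pdgfra, the receptor subunit that binds most PDGF chains and that marks resting stellate cells and fibroblasts in mouse liver, read 8.30, 8.46, 8.61 and 8.51 in unfasted mutants (replicates 1 to 4) and 7.98, 8.05, 7.84 and 7.98 in unfasted heterozygotes. All mutant arrays lay above all heterozygous ones. The difference was 0.51 ± 0.08 (1.42-fold, adjusted p = 0.0012, n = 4 per group, limma). Pdgfrb, the receptor of the PDGF-B chain and the main mitogen receptor of activated stellate cells, read 8.24, 8.42, 8.55 and 8.71 in mutants and 7.86, 8.23, 7.99 and 7.89 in heterozygotes. The groups again did not overlap, although mutant replicate 1 and heterozygous replicate 2 lay close to each other. It rose by 0.49 ± 0.10 (1.40-fold, adjusted p = 0.0068, limma). Neither receptor lost its call in this comparison under any of the 25 alternatives run, with adjusted p up to 0.012 for Pdgfra and 0.047 for Pdgfrb.

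Of the stellate cell marks, Lrat read 10.89, 10.92, 10.68 and 9.97 in unfasted mutants and 10.56, 9.61, 9.55 and 9.32 in unfasted heterozygotes. Its groups overlapped, since heterozygous replicate 1 was high and mutant replicate 4 was low. The difference was the largest of the 10 genes in size and the least certain of the called ones, at 0.85 ± 0.25 (1.81-fold, adjusted p = 0.047, limma). It lost its call under 16 of 25 alternatives, among them leaving out any of 12 single arrays (adjusted p up to 0.15). Without heterozygous replicate 1 it was 1.12 (adjusted p = 0.0055), and without the array that held acinar transcripts 0.76 (adjusted p = 0.095). Des, the intermediate filament protein desmin of stellate and muscle cells, read 7.99, 7.79, 7.93 and 7.93 in mutants and 7.57, 7.74, 7.36 and 7.67 in heterozygotes, with no overlap. It rose by 0.32 ± 0.08 (1.25-fold, adjusted p = 0.017, limma), and it was no longer called without heterozygous replicate 3 (adjusted p = 0.059) or when only these 8 arrays were fitted (adjusted p = 0.072).

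Of the 4 matrix genes Dcn was called and the collagen chains were not, although Col1a2 differed by as much as Dcn. Dcn, decorin, a small proteoglycan that binds collagen fibrils and TGF-beta, read 12.35, 12.30, 12.48 and 12.27 in unfasted mutants and 12.04, 12.18, 12.04 and 12.00 in heterozygotes. No mutant array reached down to a heterozygous one, and the rise was 0.29 ± 0.07 (1.22-fold, adjusted p = 0.015, limma). It was lost without heterozygous replicate 3 or 4 (adjusted p up to 0.054). None of the 3 fibrillar collagen chains was called. Col1a2 read 8.45, 8.61, 8.83 and 8.60 in mutants and 8.23, 8.43, 8.37 and 8.32 in heterozygotes, which did not overlap. Its difference of 0.29 ± 0.09 missed the threshold narrowly (adjusted p = 0.051, limma) and passed it under 8 of 25 alternatives, the array that held acinar transcripts left out among them (adjusted p = 0.024). Col1a1, the other type I chain, read 8.68, 8.79, 8.93 and 8.84 in mutants and 8.66, 8.69, 8.70 and 8.71 in heterozygotes, and Col3a1, the chain of type III collagen, 8.21, 8.31, 8.59 and 8.36 against 8.06, 8.22, 8.21 and 8.21. For each of these chains mutant replicate 1 lay within the heterozygous range and replicate 3 was the highest array. The differences were 0.12 ± 0.06 for Col1a1 (adjusted p = 0.25, limma, 95% confidence interval -0.00 to 0.25) and 0.19 ± 0.08 for Col3a1 (adjusted p = 0.16, limma, interval 0.02 to 0.35).

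Acta2 and Timp1 were not called in this comparison. Acta2, smooth muscle actin, ranged from 8.25 to 9.04 in unfasted mutants and from 8.16 to 9.32 in heterozygotes, and the ranges lay almost on top of each other. The difference was -0.00 ± 0.29 (limma, unadjusted p = 0.99), and its 95% interval, -0.62 to 0.61, extends past the differences called for Pdgfra, Pdgfrb, Des and Dcn and does not reach that of Lrat. Its spread between arrays was wide in every group, with an SD of 0.35 to 0.53. Timp1, an inhibitor of the matrix metalloproteinases, ranged from 5.55 to 5.73 in mutants and from 5.51 to 5.66 in heterozygotes. The difference was 0.04 ± 0.05 (limma, adjusted p = 0.72, interval -0.07 to 0.16). The Timp1 probe set lay near the dim end of the table, whose values run from 3.80 to 14.33, so that a change can be understated there.

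**Figure D1:**
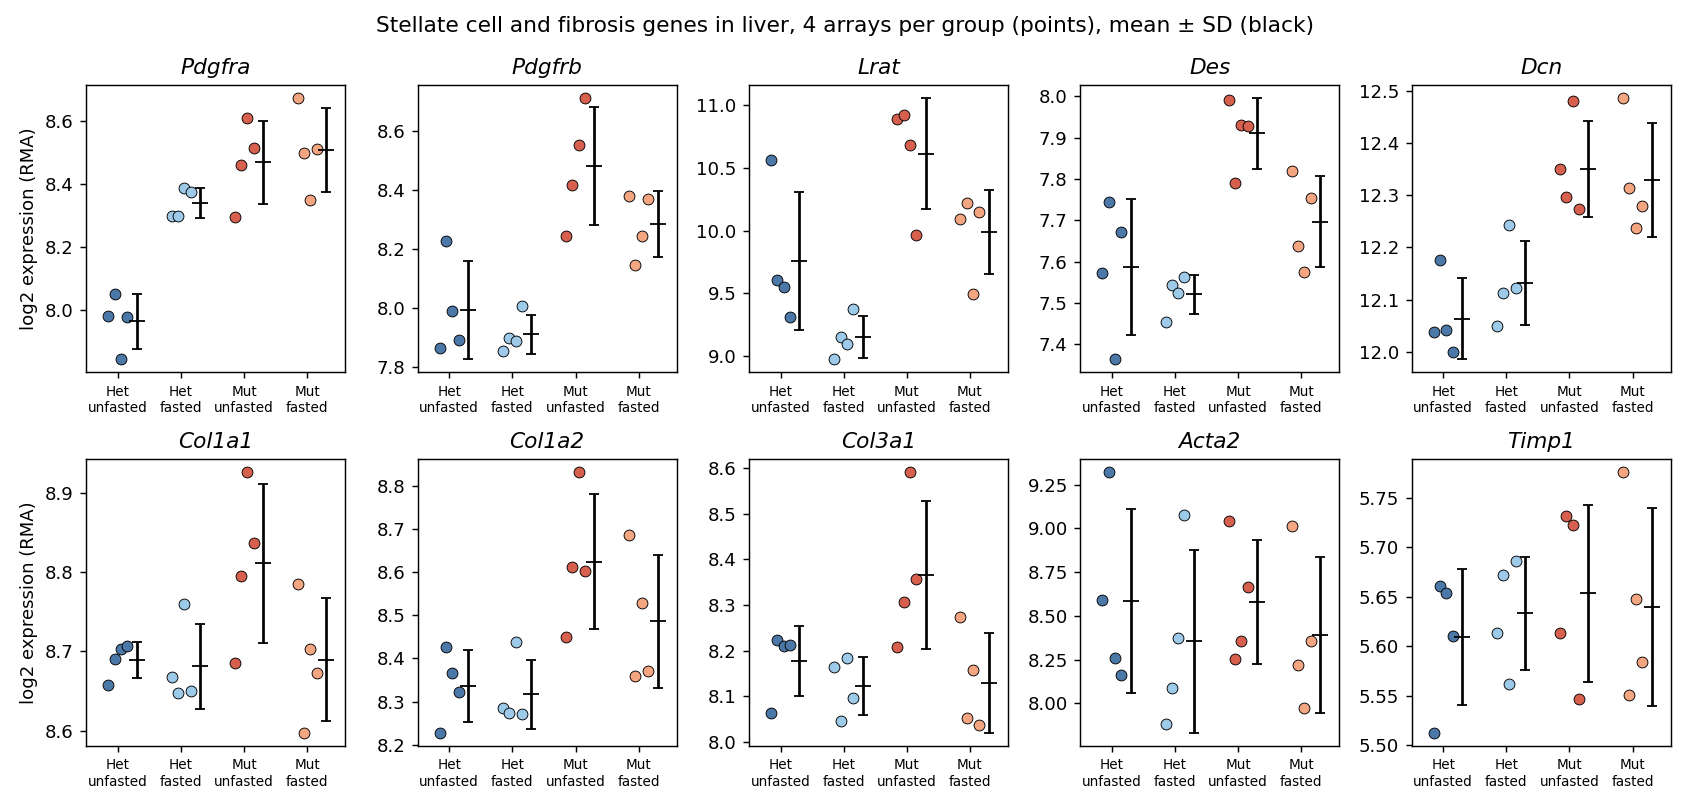
Log2 expression of the 10 genes, 1 panel per gene with its own scale, in unfasted and fasted heterozygous (Het) and mutant (Mut) livers, with 1 point per array and black bars for the mean ± SD of 4 arrays. For Pdgfra and Pdgfrb all 4 unfasted mutant arrays lie above all 4 unfasted heterozygous ones, while the 4 groups of Acta2 and of Timp1 overlap.

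To show what precedes the start of genes with different outcomes, 250 bases upstream of the annotated start are printed 5′ to 3′ for Pdgfra, Des and Lrat, called higher in unfasted mutants, and for Acta2, which was not called. The sequences are from RefSeq on the build GRCm38.p6, in which 7 of the 10 genes had a window used here. Capitals mark matches on either strand to the letters TATAA that are typical of a promoter's core box, to the letters CCAAT known as a binding site of nuclear factor Y, or to the letters GGGCGG known as the GC box, and no matches overlapped. Of 32851 windows of this length over all genes, 22.8% held TATAA, 33.8% CCAAT and 32.7% GGGCGG. The letters of a CArG box were also sought, in the strict form CCWWWWWWGG, where W is A or T. This strict form was in 1.47% of all windows and in none of the windows used here. Shorter runs, such as ccaaatgg in the Des window, were not counted. Nor were strings off by a letter, such as ccctatatgg and ccttgtttgg in the Acta2 window, so a looser CArG box is not excluded.
The Pdgfra window is chr5:75152001-75152250 on the plus strand, that of Des chr1:75360042-75360291 on the plus strand, that of Lrat chr3:82903975-82904224 on the minus strand and that of Acta2 chr19:34255374-34255623 on the minus strand.
Pdgfra: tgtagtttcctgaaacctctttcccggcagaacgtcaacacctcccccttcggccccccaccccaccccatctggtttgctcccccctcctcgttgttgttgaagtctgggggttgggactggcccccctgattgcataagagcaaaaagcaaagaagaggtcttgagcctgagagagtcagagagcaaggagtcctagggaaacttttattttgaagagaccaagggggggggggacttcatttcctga
Des: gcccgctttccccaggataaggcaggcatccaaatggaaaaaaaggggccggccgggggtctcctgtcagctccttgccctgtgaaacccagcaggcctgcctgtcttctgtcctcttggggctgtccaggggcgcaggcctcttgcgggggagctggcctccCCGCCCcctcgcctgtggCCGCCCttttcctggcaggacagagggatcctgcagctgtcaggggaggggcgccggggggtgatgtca
Lrat: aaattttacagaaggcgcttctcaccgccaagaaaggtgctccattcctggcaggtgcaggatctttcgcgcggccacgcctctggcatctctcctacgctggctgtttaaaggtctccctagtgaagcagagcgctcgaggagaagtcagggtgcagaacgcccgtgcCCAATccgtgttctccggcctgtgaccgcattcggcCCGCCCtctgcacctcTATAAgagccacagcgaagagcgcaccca
Acta2: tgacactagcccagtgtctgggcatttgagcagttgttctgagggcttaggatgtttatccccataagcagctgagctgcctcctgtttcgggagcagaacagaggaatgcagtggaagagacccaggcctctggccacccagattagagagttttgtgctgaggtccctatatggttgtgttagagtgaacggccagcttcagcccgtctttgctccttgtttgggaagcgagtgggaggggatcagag
Lrat held each of the 3 letter strings once, with TATAA from 29 to 25 bases before the start. Des held GGGCGG at 2 places and neither of the others, and Pdgfra and Acta2 held none of the 3. The other uncalled genes with a window did hold some, Col1a2 and Timp1 CCAAT and GGGCGG, and Col3a1 TATAA. The windows of Des and Lrat thus shared GGGCGG, while no string was in all 3 windows of called genes.

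In fasted mutants 2 of the 10 genes stood above fasted heterozygotes, Pdgfrb and Lrat, and none fell. Among all genes 8.62% were called higher, 5.01% lower and 13.6% in either direction. The 10 genes had a median difference of 0.17, against -0.02 over all genes. Every one of the 10 differences was above 0, where 43.3% of all genes were. Those of Col1a1, Col3a1, Acta2 and Timp1 were smaller than their standard errors, and each turned sign under some alternatives. The groups did not overlap for 3 of them, where 12.8% of all genes were higher without overlap and 11% lower. The count fell to 0 when replicate 1 of either fasted group was left out, and to 1 when replicate 2 or 4 of either was. It was 2 without unfasted mutant replicate 1.

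Pdgfrb read 8.38, 8.14, 8.24 and 8.37 in fasted mutants and 7.85, 7.90, 7.89 and 8.01 in fasted heterozygotes. The groups did not overlap, and it rose by 0.37 ± 0.10 (1.30-fold, adjusted p = 0.019, limma). It lost its call when replicate 1 of either fasted group was left out (adjusted p up to 0.054). Lrat read 10.09, 10.22, 9.50 and 10.15 in mutants and 8.98, 9.15, 9.10 and 9.38 in heterozygotes. Here its groups were apart, by the distance between mutant replicate 3 and heterozygous replicate 4, and it rose by 0.84 ± 0.25 (1.79-fold, adjusted p = 0.037, limma). Leaving out any of 7 of the fasted arrays took the call away (adjusted p up to 0.11).

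The other genes were not called in the fasted comparison. Pdgfra read 8.67, 8.50, 8.35 and 8.51 in fasted mutants and 8.30, 8.30, 8.39 and 8.37 in fasted heterozygotes. Only mutant replicate 3 reached into the heterozygous range, and the difference was 0.17 ± 0.08 (limma, adjusted p = 0.15). Des differed by 0.18 ± 0.08 (limma, adjusted p = 0.13) without overlap of the groups. Dcn differed by 0.20 ± 0.07 (limma, adjusted p = 0.059) and passed under 6 of 25 alternatives. The collagen chains lay closer together than in the unfasted state, with 0.01 ± 0.06 for Col1a1, 0.17 ± 0.09 for Col1a2 and 0.01 ± 0.08 for Col3a1. Their adjusted p lay between 0.20 and 0.96 (limma), and the intervals of Col1a1 and Col3a1 ran from -0.12 to 0.13 and from -0.16 to 0.17. Acta2 differed by 0.04 ± 0.29 and Timp1 by 0.01 ± 0.05, with adjusted p of 0.94 and 0.95 (limma). The signs of the fasted differences of Col1a1 and Col3a1 turned when the arrays were quantile-normalized again, to -0.05 and -0.02.

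**Figure D2:**
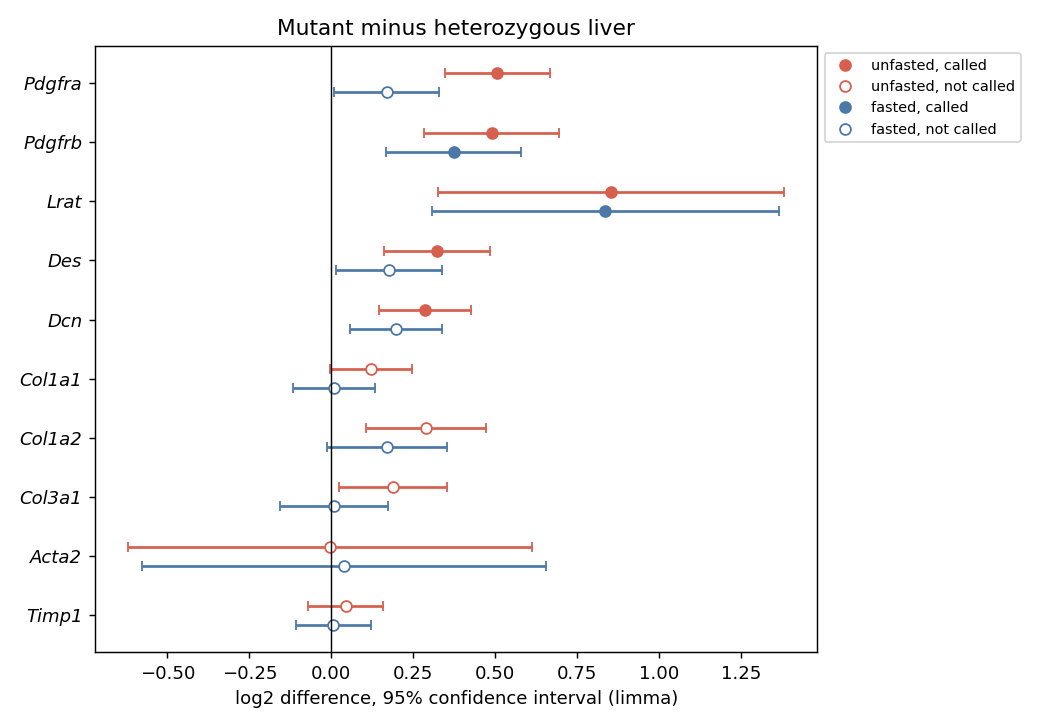
Log2 difference of mutant minus heterozygous liver for the 10 genes in the unfasted (red) and fasted (blue) state, with 95% confidence intervals from limma, filled where the gene was called. Pdgfra, Pdgfrb, Lrat, Des and Dcn are filled in the unfasted state and Pdgfrb and Lrat in the fasted one.

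Whether the genotype difference itself changed with feeding was tested by the interaction. Since the length of the fast was not the same in both genotypes, the interaction cannot tell it apart from feeding. None of the 10 genes was called, and 1 had an unadjusted p under 0.05 (limma). Among all genes 0.01% were called. That gene was Pdgfra, whose genotype difference was 0.34 ± 0.11 smaller in the fasted state, an interaction of -0.34 (limma, unadjusted p = 0.0062, adjusted p = 0.36). For Lrat the genotype differences of the unfasted and fasted state were nearly the same, with an interaction of -0.02 ± 0.35 and an interval of -0.77 to 0.73. The interactions of the 3 collagen chains lay between -0.18 and -0.11, with adjusted p of 0.53 to 0.70 (limma). A call in the unfasted state alone is therefore not shown to differ from the fasted state for any of these genes.

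Fasting moved 1 of the 10 genes in heterozygotes and none in mutants. Among all genes 0.732% were called higher, 0.838% lower and 1.57% in either direction in heterozygotes, and 2.33% higher, 1.02% lower and 3.35% in either direction in mutants. The groups did not overlap for 1 of the 10 genes in heterozygotes, Pdgfra, and for none in mutants, where 5.35% of all genes were higher and 5.11% lower without overlap in heterozygotes and 5.49% and 4.54% in mutants. Pdgfra rose by 0.38 ± 0.08 in fasted heterozygotes (1.30-fold, adjusted p = 0.019, limma), with all 4 fasted arrays above all 4 unfasted ones, at 8.30 to 8.39 against 7.84 to 8.05. The call was lost when replicate 3 or 4 of either heterozygous group was left out (adjusted p up to 0.071), and with it the count fell to 0. This comparison uses the same unfasted heterozygous arrays as the unfasted genotype comparison of Pdgfra. In mutants Pdgfra differed by 0.04 ± 0.08 between the feeding states (limma, adjusted p = 0.79). The order of its group means was 7.96 ± 0.09 (SD, n = 4) in unfasted heterozygotes, 8.34 ± 0.05 in fasted heterozygotes, 8.47 ± 0.13 in unfasted mutants and 8.51 ± 0.13 in fasted mutants, and the first did not overlap the second, while the second overlapped the third and the third the last.

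Lrat was lower after the fast by similar amounts in both genotypes, whose fasts were not held to the same length. It differed by -0.61 ± 0.25 in heterozygotes (limma, adjusted p = 0.31) and by -0.62 ± 0.25 in mutants (limma, adjusted p = 0.16), and neither difference was called. Its group means ran from 9.15 ± 0.17 (SD, n = 4) in fasted heterozygotes through 9.76 ± 0.55 in unfasted heterozygotes and 9.99 ± 0.33 in fasted mutants to 10.61 ± 0.44 in unfasted mutants. Each neighbour in that order overlapped the next. Without unfasted heterozygous replicate 1 the heterozygous difference was -0.34. In mutants Col3a1 was lower after the fast by 0.24 ± 0.08 (a difference of -0.24, limma, adjusted p = 0.097) and Des by 0.21 ± 0.08 (a difference of -0.21, adjusted p = 0.12). With Lrat these were the 3 genes at an unadjusted p under 0.05 in mutants. Without the array that held acinar transcripts the Col3a1 difference was -0.29 and was called (adjusted p = 0.034), which brought the mutant count from 0 to 1. The differences of Pdgfrb were -0.08 ± 0.10 in heterozygotes and -0.20 ± 0.10 in mutants, and those of Dcn 0.07 ± 0.07 and -0.02 ± 0.07. Acta2 and Timp1 were not called in either genotype (limma, adjusted p of 0.72 to 0.94).

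**Figure D3:**
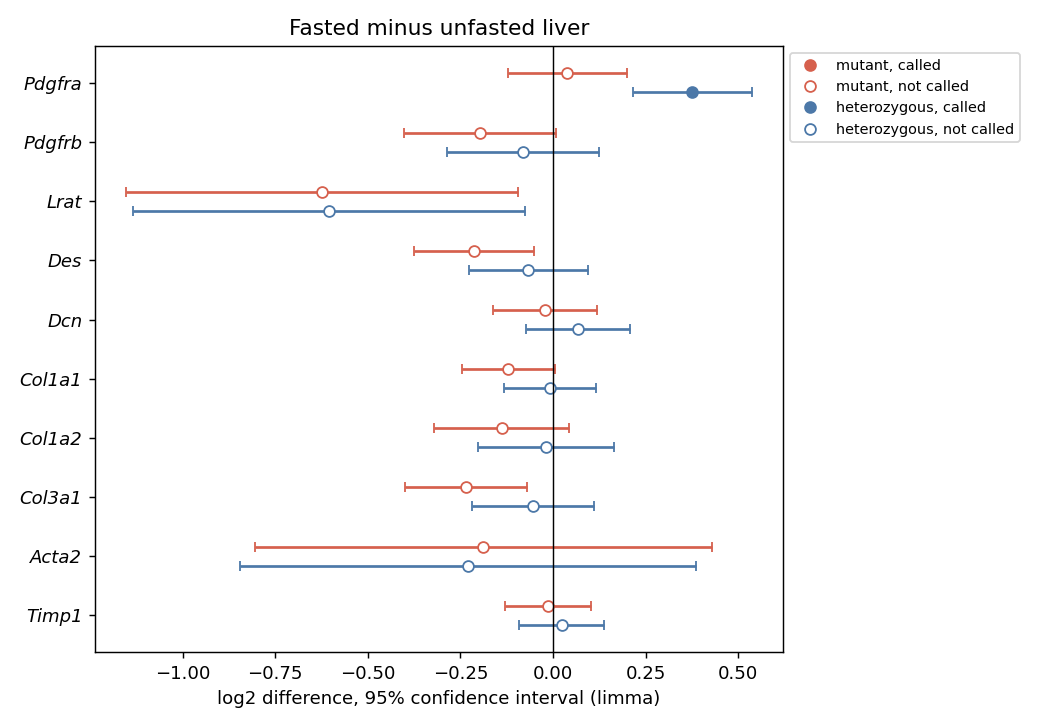
Log2 difference of fasted minus unfasted liver for the 10 genes in mutants (red) and heterozygotes (blue), with 95% confidence intervals from limma, filled where the gene was called. Pdgfra in heterozygotes, at 0.38, is the filled point, and the Lrat points of both genotypes lie near -0.6.

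Other genes of stellate cells and of the matrix were counted in lists, to place the 10 genes. These lists were chosen with earlier results of these data known. Each list count is to be set beside the share of all genes called. In unfasted mutants 4.25% of all genes were called higher and 3.69% lower, and in fasted mutants 8.62% and 5.01%. Of 21 further stellate cell markers 11 rose in unfasted mutants and none fell, with a median of 0.31. Vim (vimentin, an intermediate filament protein shared with other mesenchymal cells) rose by 0.67 ± 0.14, Hgf (hepatocyte growth factor, which stellate cells supply to hepatocytes) by 0.52 ± 0.10, Fcna (a ficolin) by 0.51 ± 0.14 and Vipr1 (a receptor of vasoactive intestinal peptide) by 0.46 ± 0.08. The count was 12 without the array that held acinar transcripts, 7 without unfasted mutant replicate 3, and 5 and 6 without unfasted heterozygous replicates 3 and 4. It was 6 when only the unfasted arrays were fitted. In fasted mutants 7 of the 21 rose and 1 fell, with a median of 0.20. Fcna rose by 0.63 ± 0.14, Colec10 (a collectin) by 0.41 ± 0.07 and Hgf by 0.39 ± 0.10, while the chemokine gene Cxcl12 fell by 0.49 ± 0.12. The fasted calls, 8 in all, numbered 5 without fasted mutant replicate 1 and 4 without fasted heterozygous replicate 4.

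Matrix genes other than the 3 fibrillar chains were counted next. Of 28 matrix proteins 12 rose in unfasted mutants and none fell (median 0.30), and 14 rose without the array that held acinar transcripts. Postn (periostin, a matricellular protein of fibroblasts) rose by 1.39 ± 0.18 (2.62-fold, adjusted p = 0.00038, limma), Sparcl1 by 1.03 ± 0.16, Nid1 (nidogen, which links basement membrane laminin to type IV collagen) by 0.87 ± 0.13 and Sparc (osteonectin) by 0.58 ± 0.15. In fasted mutants 8 rose and 1 fell (median 0.10). Postn was higher by 1.28 ± 0.18, Sparc by 0.85 ± 0.15, Nid1 by 0.84 ± 0.13 and Sparcl1 by 0.56 ± 0.16. Of 15 other collagen chains 2 rose in unfasted mutants, both of the basement membrane, Col4a2 by 0.45 ± 0.07 and Col4a1 by 0.29 ± 0.06. In fasted mutants they rose by 0.34 ± 0.07 and 0.26 ± 0.06, and Col18a1, also of basement membranes, fell by 0.33 ± 0.09. The median of the 15 chains was 0.06 unfasted and -0.03 fasted, and 4 rose in unfasted mutants without the array that held acinar transcripts.

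Genes that process or degrade collagen came next. Among all genes 4.25% were called higher in unfasted and 8.62% in fasted mutants. The 1 rise among 18 processing genes unfasted and the 1 among 19 proteases and inhibitors fasted were near these shares. Of 18 collagen processing and crosslinking genes 1 rose in unfasted mutants, Tgm2 (transglutaminase 2, which crosslinks matrix proteins) by 0.47 ± 0.14, and the count ran from 0 to 4 over the single arrays left out, with 3 without unfasted mutant replicate 1. In fasted mutants Crtap (cartilage-associated protein, a partner in collagen prolyl hydroxylation) rose by 0.64 ± 0.14, Tgm2 by 0.55 ± 0.14 and Pcolce2 (an enhancer of procollagen cleavage) by 0.50 ± 0.16, while Bmp1 (the procollagen C-proteinase) fell by 0.49 ± 0.10. The remaining call, P4ha2 (a prolyl hydroxylase subunit), which fell by 0.20 ± 0.06, was named after its value was seen. These 5 fasted calls numbered 3 when replicate 1 of the fasted mutants, or 1, 2 or 4 of the fasted heterozygotes, was left out, and 2 without fasted heterozygous replicate 3. Of 19 matrix proteases and inhibitors Timp2 rose by 0.50 ± 0.11 and Mmp9 (gelatinase B) by 0.36 ± 0.10 in unfasted mutants, and Reck, a membrane inhibitor of metalloproteinases, fell by 0.65 ± 0.12. These 3 calls became 6 without unfasted mutant replicate 1 and 5 without unfasted mutant replicate 4 or fasted mutant replicate 1. Mmp9 was the 1 call in fasted mutants, at 0.75 ± 0.10 (adjusted p = 0.00047, limma), and a further gene was called, making 2, without any 1 of 7 single arrays.

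The signals that act on stellate cells were examined next. Of 4 PDGF ligands none was called in any of the 4 pairwise comparisons (limma). In unfasted mutants 2 had an unadjusted p under 0.05, Pdgfd at 0.44 ± 0.19 and Pdgfb at 0.19 ± 0.07 (adjusted p of 0.17 and 0.12), and these genes were chosen after their values were seen. In the unfasted comparison 1 ligand was called without the array that held acinar transcripts. Of 27 TGF-beta family genes 9 rose in unfasted mutants and none fell (median 0.32), 9 also without the array that held acinar transcripts and 5 without unfasted heterozygous replicate 3. Among them were Bmp2 at 0.68 ± 0.15 and Bmp6 at 0.48 ± 0.13 (bone morphogenetic proteins known for their control of hepcidin in hepatocytes), Ltbp4 (a latent TGF-beta binding protein) at 0.68 ± 0.11 and Smad6 (an inhibitory signal carrier) at 0.48 ± 0.10. In fasted mutants 5 rose, with Bmp2 at 0.67 ± 0.15, Tgfb1 (the main profibrotic ligand) at 0.51 ± 0.09, Ltbp4 at 0.41 ± 0.11 and Eng (endoglin, a coreceptor of endothelium) at 0.30 ± 0.08. That count was 3 when replicate 1 or 4 of the fasted mutants, or 3 or 4 of the fasted heterozygotes, was left out. Of 17 retinoid genes Rarb, a retinoic acid receptor, rose by 0.94 ± 0.23 in unfasted and 0.95 ± 0.23 in fasted mutants, and Rarg, another, by 0.38 ± 0.08 and 0.37 ± 0.08. In the unfasted comparison these 2 were the calls of the list. The count was 1 when replicate 1 or 2 of the unfasted mutants, or 3 or 4 of the unfasted heterozygotes, was dropped. It was 0 when only the unfasted arrays were fitted. In the fasted comparison Rdh11 also rose, by 0.68 ± 0.22, and Rdh10 and Aldh1a1, which make retinal and retinoic acid, fell by 0.37 ± 0.09 and 0.32 ± 0.07. Aldh1a1 was named after its value was seen. These 5 calls were 3 when replicate 1 of the fasted mutants or 2 of the fasted heterozygotes was dropped.

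Markers of other cells were counted beside the 10 genes, since in bulk liver more cells of a type and more RNA per cell cannot be told apart. Of 15 endothelial markers 11 rose in unfasted and 10 in fasted mutants and none fell, with medians of 0.34 and 0.33. Their summed level, with log2 values turned back to the linear scale, was 11780 to 14199 in unfasted mutants and 8674 to 11061 in unfasted heterozygotes, and 12320 to 14118 in fasted mutants against 9036 to 10503. Lyve1, a hyaluronan receptor of sinusoids, rose by 1.37 ± 0.31 and Flt4 by 0.65 ± 0.12 in unfasted mutants. The unfasted count of 11 was 10 without the array that held acinar transcripts, and 4 and 7 without unfasted heterozygous replicates 3 and 4. It was 3 when only the unfasted arrays were fitted. None of 14 macrophage markers was called in unfasted mutants (limma, 6 at an unadjusted p under 0.05, summed level 6838 to 11145 against 5782 to 8537), with 1 called without unfasted mutant replicate 1 or fasted mutant replicate 1 and 3 without unfasted mutant replicate 4. In fasted mutants 10 rose (10114 to 13409 against 5852 to 8465). All 14 differences were above 0 in the unfasted state (median 0.28) and 13 in the fasted state (median 0.70). No macrophage marker was called in the interaction (limma), so a dependence on feeding is not shown. None of 9 hepatocyte markers was called in either state (limma, 1 and 3 at an unadjusted p under 0.05), and their summed level was 70885 to 84948 in unfasted mutants and 79464 to 86310 in unfasted heterozygotes.

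Of 13 contractile and smooth muscle markers, the cells with which Acta2 is shared, Tpm1 (a tropomyosin that other cells also make) rose by 0.79 ± 0.11 in both states and Mylk (myosin light chain kinase) fell by 0.38 ± 0.11 unfasted and 0.47 ± 0.11 fasted, and Cald1 (caldesmon) rose by 0.28 ± 0.08 in fasted mutants. Their summed level was 5179 to 5478 in unfasted mutants against 4907 to 5276. The unfasted count of 2 became 1 when replicate 1, 2 or 4 of the unfasted mutants, or 1, 3 or 4 of the unfasted heterozygotes, was left out. Of 13 portal fibroblast and mesothelial markers 1 rose in unfasted mutants, Gas6 by 0.65 ± 0.17, and none did when replicate 2 or 3 of the unfasted mutants, or 3 or 4 of the unfasted heterozygotes, was dropped. In either state 2 were called without fasted mutant replicate 1. In fasted mutants Entpd2, an ectonucleotidase of portal fibroblasts, rose by 0.58 ± 0.14. These counts of 1 of 13 were near the shares of all genes called higher, 4.25% unfasted and 8.62% fasted. Of 7 cholangiocyte markers Tspan8 rose by 0.26 ± 0.07 unfasted and Sox9 fell by 0.62 ± 0.12 fasted. Cholangiocyte calls in the unfasted comparison were 2 without unfasted mutant replicate 1, unfasted heterozygous replicate 2 or fasted mutant replicate 1 or 3, and they were 0 without any 1 of 5 other arrays. Of 14 cell cycle genes 8 rose in unfasted and 4 in fasted mutants, and 11 and 7 without the array that held acinar transcripts. The unfasted count was 4 when replicate 2 of the unfasted mutants or 3 of the unfasted heterozygotes was dropped and 5 for replicate 3 of the former or 4 of the latter, and the fasted count was 2 without fasted mutant replicate 1. When only the unfasted arrays were fitted, unfasted calls were 4 for cell cycle genes, 1 for contractile markers and 0 for cholangiocyte markers. The part of these other cells and of dividing cells in the differences of the 10 genes was not tested.

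**Figure D4:**
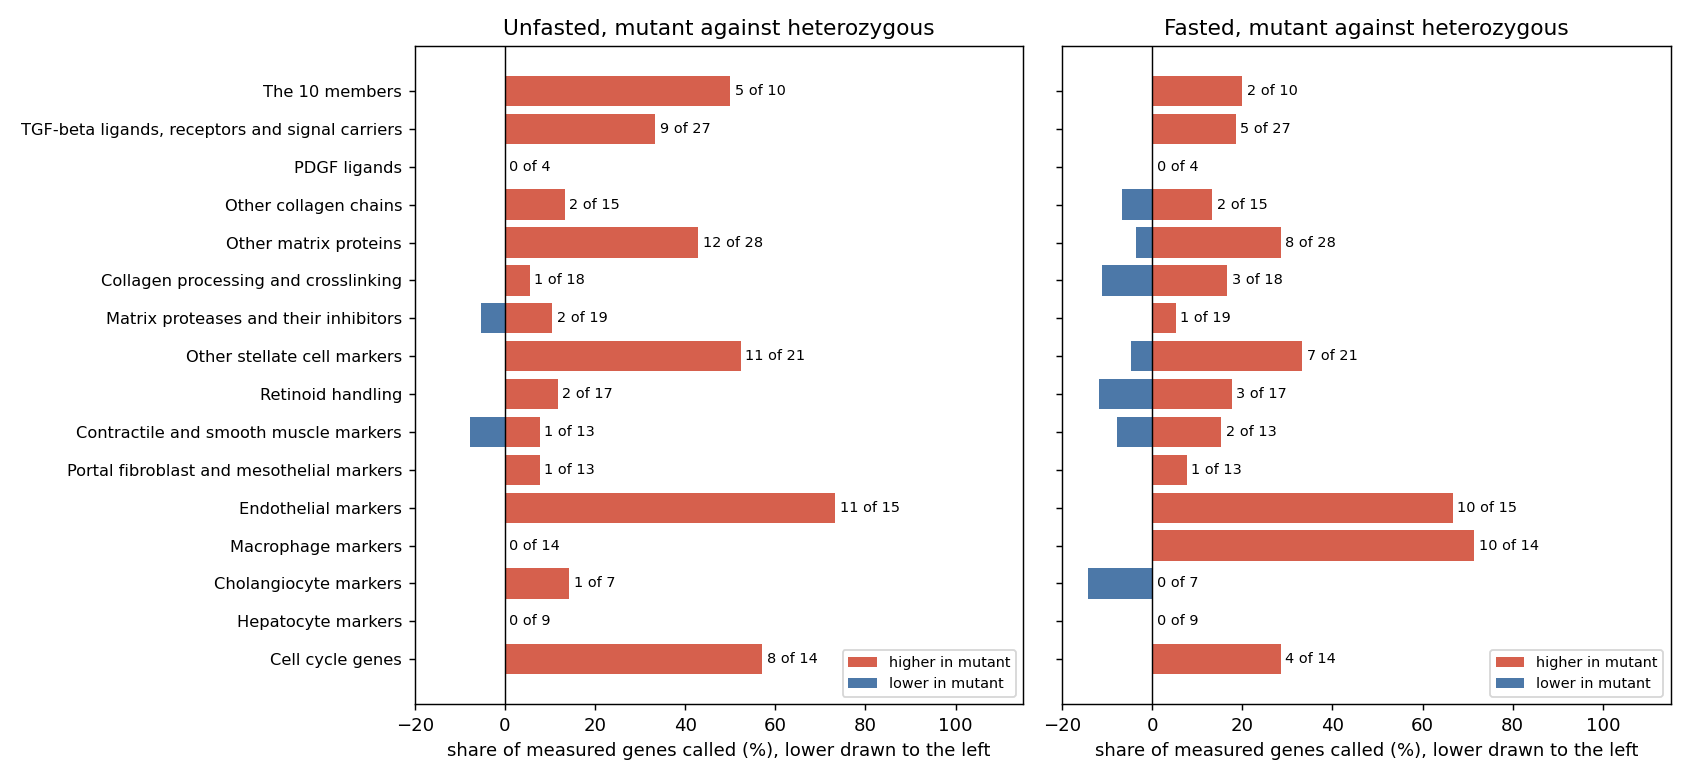
Share of the measured genes of each list that were called higher (red, to the right) or lower (blue, to the left) in mutants, unfasted on the left and fasted on the right, with the number called higher of the number measured beside each bar. In the unfasted state 5 of the 10 members, 11 of 21 further stellate cell markers and 11 of 15 endothelial markers were called higher, against 2 of 15 other collagen chains.

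Between the feeding states 9 genes of these lists were called, where 1.57% of all genes were called in heterozygotes and 3.35% in mutants. In each genotype most lists had no call. Calls in heterozygotes were 1 each of 18 processing genes, 19 proteases and inhibitors and 17 retinoid genes. In mutants they were 1 each of 28 matrix proteins, 15 other collagens, 21 stellate markers and 7 cholangiocyte markers. Of 14 cell cycle genes 2 were called there. The calls are named and not read as a result about any list. In heterozygotes Bmp1 rose by 0.43 ± 0.10 after the fast, while Reck fell by 0.56 ± 0.12 and Rdh11 by 0.96 ± 0.22, and each of these 3 list counts of 1 fell to 0 without any 1 of at least 4 single heterozygous arrays. In mutants Lum (lumican, a small proteoglycan of collagen fibrils) fell by 0.69 ± 0.12, Col14a1 (a fibril-associated collagen) by 0.40 ± 0.08 and Ngfr (the low-affinity neurotrophin receptor, found on stellate cells) by 0.30 ± 0.07. Krt7, Top2a and Mcm5 fell by 0.32 ± 0.07, 0.55 ± 0.13 and 0.42 ± 0.10. Without the array that held acinar transcripts 5 of the matrix proteins, 4 of the other collagens, 2 of the stellate markers, 4 of the cholangiocyte markers and 8 of the cell cycle genes were called in mutants, in place of 1, 1, 1, 1 and 2. Without it 2 retinoid genes, 1 TGF-beta gene, 1 collagen processing gene and 1 acinar marker were also called in mutants, in place of 0 each, and 1 other collagen and 1 matrix protein in heterozygotes, in place of 0. Other single arrays took mutant calls away, and none was left when only the mutant arrays were fitted. The other collagens had 0 calls without unfasted or fasted mutant replicate 2, and the stellate markers 0 without unfasted mutant replicate 2 or 4 or fasted mutant replicate 2 or 3. The cholangiocyte markers had 0 calls without unfasted mutant replicate 3 or 4 or fasted mutant replicate 2, 3 or 4, and the cell cycle genes 0 without unfasted mutant replicate 2 or 3 or fasted mutant replicate 2, 3 or 4. The matrix protein count was 4 without fasted mutant replicate 1, the stellate count 2 without that array, and the cholangiocyte count 2 without replicate 2 of either unfasted group.

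Genes with the most similar pattern over the 16 arrays were sought by the root mean square difference from a mean profile, after each gene was centred on its own mean. For the mean of the 3 fibrillar chains, whose SD over arrays was 0.13, the closest were Kif2c at 0.041, Col6a1 at 0.056, Bub1b at 0.057, Col6a3 at 0.058 and Eva1b at 0.059, where the median gene stood at 0.16. Col6a1 and Col6a3 are chains of type VI collagen, and Kif2c and Bub1b act in mitosis. For the mean of the 2 PDGF receptors, whose SD was 0.23, the closest were Arrb1 at 0.091, then Cd300lg, Nav1, Jcad and Cdc42se1 at 0.10 each, with a median gene at 0.25. Arrb1, an arrestin, was 0.46 higher in unfasted and 0.30 higher in fasted mutants, and Jcad, a junction protein of endothelial cells, 0.43 and 0.29 higher. Such differences follow from the choice, since the profile used to pick these genes itself differed by genotype. The averaged level of the 3 fibrillar chains was 8.45, 8.57, 8.78 and 8.60 in unfasted mutants and 8.32, 8.45, 8.43 and 8.41 in unfasted heterozygotes, so that mutant replicate 1 lay level with heterozygous replicate 2. That of the receptors was 8.27, 8.44, 8.58 and 8.61 against 7.92, 8.14, 7.92 and 7.93, with no overlap.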

How the data were processed

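Liver RNA of 16 mice was hybridised to Affymetrix Mouse Gene 1.0 ST arrays, 1 per liver, after labelling of 300 ng of total RNA per the labels' protocols. The authors deposited 1 table of log2 values for 35556 probe sets, made with Affymetrix Expression Console and RMA per the submitters' processing notes. RMA corrects background, quantile-normalizes the arrays and summarizes probe sets. The sources used here give no version, library file or build. The log2 scale was inferred from the range of 3.80 to 14.33.

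Gene names came from the annotation of the platform, updated by gene number through RefSeq. Of them 21789 had 1 symbol, 1621 had several and 12146 were unnamed here. The highest mean over 16 arrays represented a gene with several probe sets (999 of 19938 genes), and no gene was filtered. The model of limma 3.58.1 in R 4.3.3 had 1 mean per group over all 16 arrays, with variances moderated along an intensity trend, two-sided tests and Benjamini-Hochberg adjustment over all genes. It was tested on simulated data. The 5 contrasts, the 16 gene lists and the 10 genes were chosen with earlier results of these data known. Up to 4 called genes per list and contrast were named by size of difference, and up to 5 genes per similar pattern. The alternatives were 9 other settings and each array left out in turn. No detection calls were used, and only the number of arrays sets the precision. By the design text, each group had mice of its own. Arrays of a group correlated at 0.985 to 0.996, and no 2 arrays were identical.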

Additional observations from a re-analysis of the deposited data

Results flagged for a closer look

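In 2 of 40 sets of 4 arrays (10 genes in 4 groups) the array at 1 end stood apart from the other 3 by Dixon's test at the 95% level. Chance gives about 1 in 20 such sets. Col1a2 read 8.44 on fasted heterozygous replicate 3 and 8.27 to 8.28 on the other 3 arrays of that group, and Col1a1 was highest on that array too, at 8.76. Col3a1 read 8.06 on unfasted heterozygous replicate 1 against 8.21 to 8.22 on the other 3.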

How the results depend on the processing

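Of the 10 genes in 5 contrasts under 9 other settings and 16 single arrays left out, 1137 of the differences kept their direction and side of the threshold, 33 lost a call, 15 gained one and 50 turned sign, none of the latter called. The number of genes called in unfasted mutants, 5, was 3 when only the arrays compared were fitted and ran from 2 to 6 over single arrays left out. The fasted count of 2 ran from 0 to 3, the heterozygous fasting count of 1 from 0 to 1, the mutant fasting count of 0 from 0 to 1, and the interaction count stayed at 0. The cause was not tested.

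With array weights the fasted genotype difference turned to -0.069 for Acta2 and -0.020 for Timp1 and the Acta2 interaction to -0.038. With a second quantile normalization the fasted genotype difference turned to -0.048 for Col1a1 and -0.025 for Col3a1, and the fasting difference in mutants to -0.013 for Pdgfra and 0.011 for Timp1. Over single arrays left out, Acta2 ran from -0.16 to 0.24 (unfasted genotype), -0.17 to 0.28 (fasted genotype), -0.21 to 0.28 (interaction) and -0.47 to 0.017 (heterozygous fasting). Col1a1 ran from -0.023 to 0.039 (fasted genotype) and -0.035 to 0.0030 (heterozygous fasting), Col1a2 from -0.059 to 0.011 (heterozygous fasting) and Col3a1 from -0.040 to 0.039 (fasted genotype). Dcn ran from -0.073 to 0.022 and Pdgfra from -0.019 to 0.092 (mutant fasting), and Lrat from -0.28 to 0.15 (interaction). Timp1 ran from -0.039 to 0.036 (fasted genotype), -0.0086 to 0.047 (heterozygous fasting) and -0.059 to 0.016 (mutant fasting).

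No label ties same-numbered arrays of different groups, and their deviations correlated at -0.12 to 0.25, so the numbers were not taken to pair them. As a hint from the data, 8 of 16 arrays correlated best with their own number, where 4 numbers give about 4 by chance. With the replicate block 6 genes were called in unfasted and 2 in fasted mutants. Over all genes the unfasted count of 1584 was 764, and the mutant fasting count of 667 was 33 when only the arrays compared were fitted, and the latter was 1941 without unfasted mutant replicate 1 and 224 to 371 without unfasted mutant replicate 2 or 4 or fasted mutant replicate 2 or 3. The unfasted count was 698, 815 and 1033 without unfasted heterozygous replicate 3, heterozygous replicate 4 and mutant replicate 3, and the fasted count of 2716 was 1575 and 1713 without fasted mutant replicate 2 and heterozygous replicate 4. The interaction count of 2 ran from 0 to 6. The heterozygous fasting count of 313 was 568 with only the arrays compared and 1029 with array weights, and 155 to 180 without any 1 of 6 heterozygous arrays. The shares of all genes printed beside the member counts move with these counts. Of the list counts 194 moved by over 1.5 times and 1790 did not.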
